A study of Mus musculus with 22 samples.

Results

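A set of 10 genes known as partners or targets of PRDM16 in brown fat were followed in forebrain (FB) RNA of *Prdm16* KO and control mouse embryos: *Ppargc1a*, *Ppargc1b*, *Ppara*, *Pparg*, *Ppard*, *Cebpb*, *Ucp2*, *Cidea*, *Cpt1a* and *Elovl3*. They were picked by name from general knowledge of brown fat, make up 10 of the 24421 genes of the count table, and address whether the fat programme depends on *Prdm16* in forebrain. None of the 7 genes with enough counts to be tested passed the threshold for a difference between KO and control, as for 0% of all tested genes. For each of the 10 the 3 KO libraries overlapped the 3 control libraries. Over all tested genes, groups did not overlap with KO higher in 3.86% and with KO lower in 3.55%. *Ucp2*, *Cpt1a*, *Ppard* and *Ppargc1a* had more than 100 counts in every library, *Cebpb*, *Ppara* and *Ppargc1b* were low, and *Pparg*, *Cidea* and *Elovl3* lay at or near 0 in all libraries except KO F731.

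RNA was sequenced from forebrain at E13.5 in 3 KO and 3 control libraries, each taken as 1 embryo because its column carries 1 animal number. The KO embryos carry a null gene-trap allele of *Prdm16* (cGT or cGTreinv), on a line outcrossed to FVB/NJ, that is not confined to the forebrain. The sample labels describe the controls as heterozygous or wild-type littermates, whereas the study's methods call them wild type and name dissected cortex as the tissue. The molecule was poly(A) RNA by the labels, whereas the library kit in the methods is one for total RNA. Libraries are named by the animal number in the count table, which is F727, F728 and F731 for KO and F722, F724 and F725 for control. The sample labels do not give these numbers, so the libraries served as unnumbered replicates of their group.

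PRDM16 is a zinc finger protein best known in brown fat, the tissue that burns fatty acids for heat. There it works with the coactivator PGC-1α (*Ppargc1a*), with nuclear receptors of the PPAR family and with C/EBPβ (*Cebpb*), and cells that gain it switch on brown fat genes such as *Cidea*, *Elovl3* and *Ucp1*. The PPAR receptors bind fatty acids, pair with RXR receptors on DNA and drive genes of lipid use. In the forebrain PRDM16 is a factor of radial glia, the stem cells that give rise to cortical neurons.

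*Prdm16* itself had 349, 279 and 99 counts in KO F727, F728 and F731, against 2003, 2015 and 1114 in controls F722, F724 and F725, lower in every KO library as the genotypes state. KO F731 differed from the other 5 libraries in several ways. It was the shallowest, with 16638433 counts against 28569526 to 43066648 in the others, yet had counts for 22991 genes against 17795 to 18320. Ribosomal RNA precursor (*Rn45s*) made up 7.39% of its counts, against 0.224% to 2.43% in the others. Summed over each marker list, erythroid genes reached 5170 CPM (counts scaled to library size) in KO F731 against 1439 to 1810 in the others, microglia genes 60.1 against 29.4 to 33.5, skeletal muscle genes 42.6 against 5.13 to 5.96, endothelium genes 129 against 67.9 to 91.4, and mesenchyme genes 91.2 against 15.1 to 64.8, whereas choroid plexus genes, at 31.3, lay within the range of the others. Of the 45 genes on the 6 marker lists other than muscle, 0 were called, beside 0% of all tested genes in edgeR and 0.115% in DESeq2. This count thus does not show equal cell composition. Median log2 fold changes of these lists ran from -0.094 for forebrain to 0.89 for choroid plexus. Without KO F731 they ran from -0.14 for erythroid to 0.52 for choroid plexus genes. The 10 forebrain markers summed to 2583 in KO F731 and to 2717 to 3069 in the others. Values without this library are therefore given beside those over all 6, and the part of these differences in those results was not tested. In bulk tissue, fewer cells of a type and less RNA per cell cannot be told apart.

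Of the 10 genes, 7 had enough counts to be tested with edgeR among 15027 genes, and 0 of these 7 had an adjusted *P*-value under 0.05, as for 0% of all tested genes. At an unadjusted *P*-value under 0.05, edgeR found 0 of the 7, against 1.92% of all genes (1.26% higher in KO and 0.665% lower), and 0 without KO F731, against 2.63% (1.44% higher and 1.19% lower). DESeq2 called 0 of the 7 over all 6 libraries, where it called 0.115% of the genes, and 0 without KO F731, where it called 0.206%. It gave no adjusted *P*-value for *Pparg*, *Cidea* and *Elovl3*, which could thus not be called. In the same edgeR test *Prdm16*, at -2.61 (standard error 0.22) on the log2 scale, had an adjusted *P*-value of 0.0536. This edgeR test thus did not call even the mutated gene, so that its 0 of 7 says little. DESeq2 did call *Prdm16*, with an adjusted *P*-value of 7.1e-24, and of 1.7e-28 without KO F731. Groups did not overlap, with KO higher, in 3.86% of all tested genes and, with KO lower, in 3.55%, and 0 of the 7 genes were among them. Without KO F731 these shares were 7.3% and 6.91%, again with 0 of the 7. Their median log2 fold change was -0.17, with 3 above 0 and 4 below, beside a median of -0.0037 and 50.8% below 0 over all tested genes. Without KO F731 it was -0.086, with 1 gene above 0 and 6 below.

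**Figure D1:**
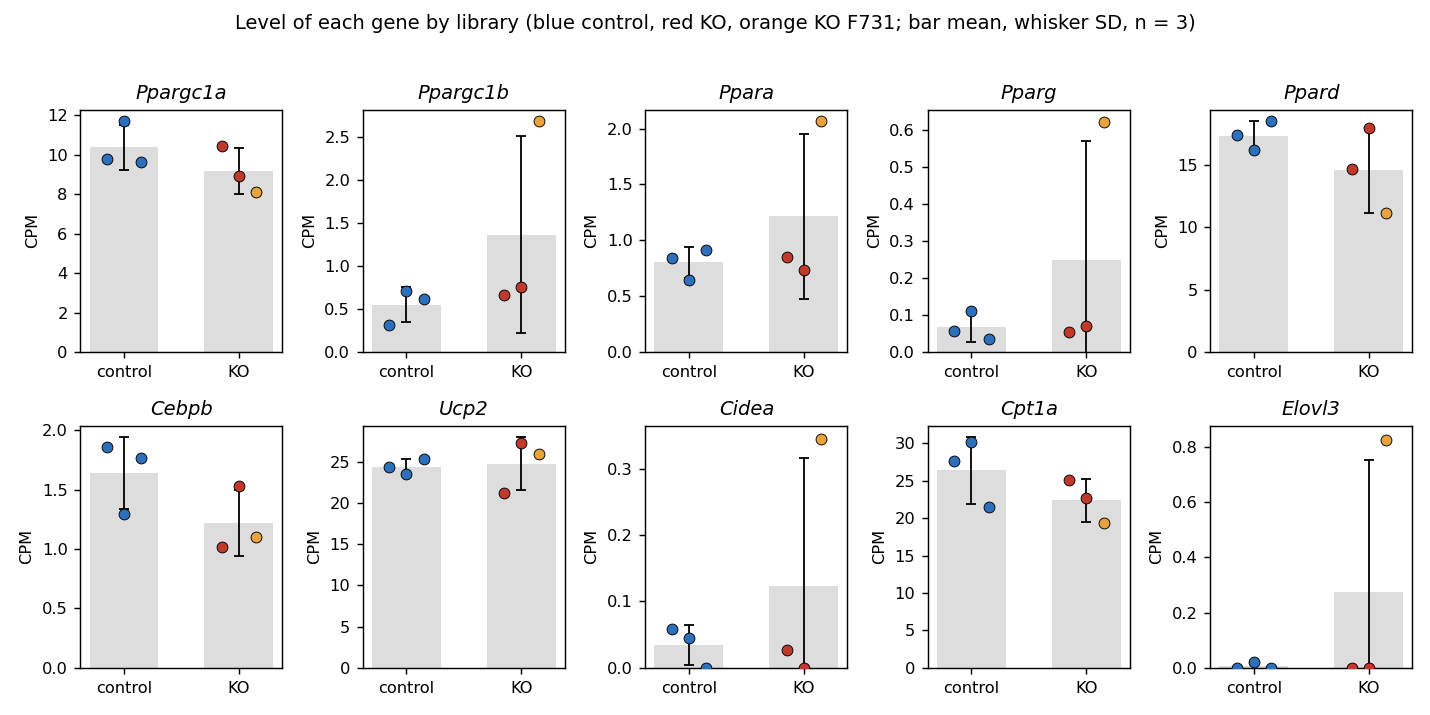
Each panel shows 1 of the 10 genes, with normalized CPM on the vertical axis. Points are libraries, bars are group means and whiskers the SD over 3 libraries. KO F731, in orange, is the highest library for *Ppargc1b*, *Ppara*, *Pparg*, *Cidea* and *Elovl3* and the lowest for *Ppargc1a*, *Ppard* and *Cpt1a*.

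*Ppargc1a*, the coactivator that brings brown fat genes and mitochondrial genes under the control of nuclear receptors, lies on chromosome 5 of GRCm38 from 51454250 to 51567726 on the minus strand. It had 379, 379 and 118 counts in KO F727, F728 and F731, against 337, 524 and 283 in controls F722, F724 and F725. On the CPM scale, in which counts are divided by the TMM-scaled library size, these were 10.4, 8.93 and 8.13 in KO and 9.78, 11.7 and 9.61 in control. KO F727 lay above 2 of the controls and the other KO libraries below all 3. The means were 9.16±1.17 CPM in KO and 10.4±1.15 in control (SD, n = 3 each), a log2 fold change of -0.17 with a 95% interval of -0.53 to 0.18 (edgeR adjusted *P*=0.863), and -0.10 (95% interval -0.44 to 0.24) without KO F731. In fold terms the interval over all libraries ran from 0.693 to 1.13.

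*Ppargc1b*, its close relative PGC-1β, which also drives mitochondrial genes, lies on chromosome 18 and was far lower. It had 24, 32 and 39 counts in KO F727, F728 and F731, against 11, 32 and 18 in controls F722, F724 and F725. In CPM, KO F731 stood at 2.69, while the other KO libraries stood at 0.660 and 0.754 and the controls at 0.319, 0.714 and 0.612. The KO mean of 1.37±1.14 CPM (SD, n = 3) against 0.548±0.205 (SD, n = 3) in control thus rests on KO F731. The log2 fold change was 1.21 (95% interval -0.26 to 2.69, edgeR adjusted *P*=0.863) over all libraries and 0.35 (95% interval -0.52 to 1.23) without KO F731.

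Among the PPAR receptors, *Ppard* was the main one in these forebrains. It encodes PPARδ, which is made in many tissues, and lies on chromosome 17 from 28232700 to 28301474 on the plus strand. Its level was 14.7, 18.0 and 11.2 CPM in KO F727, F728 and F731, against 17.4, 16.2 and 18.5 CPM in controls F722, F724 and F725. KO F728 lay within the range of the controls and the other KO libraries below it. The means of 14.6±3.43 CPM in KO and 17.4±1.17 in control (SD, n = 3 each) gave a log2 fold change of -0.24 (95% interval -0.65 to 0.18, edgeR adjusted *P*=0.863), and of -0.086 (95% interval -0.38 to 0.20) without KO F731.

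*Ppara*, which encodes the receptor PPARα of fatty acid oxidation in liver and brown fat, lies on chromosome 15 from 85734983 to 85802819 on the plus strand. It had 31, 31 and 30 counts in KO F727, F728 and F731, against 29, 29 and 27 in controls F722, F724 and F725, nearly the same number in every library. As KO F731 is the shallowest, its 30 counts came to 2.07 CPM, against 0.853 and 0.731 in the other KO libraries and 0.647 to 0.917 in the controls. The log2 fold change of 0.53 (95% interval -0.55 to 1.62, edgeR adjusted *P*=0.863) became -0.0071 (95% interval -0.66 to 0.64) without that library.

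*Pparg*, the receptor without which no fat cell forms, was barely detected. It lies on chromosome 6 from 115360951 to 115490399 on the plus strand and had 2, 3 and 9 counts in KO F727, F728 and F731, against 2, 5 and 1 in controls F722, F724 and F725. The KO libraries other than F731 were within the range of the controls. Too few counts left it out of the edgeR test, and a two-sided exact permutation test of its CPM gave *P*=0.6, where 3 against 3 libraries cannot go below 0.1.

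*Cebpb*, which encodes the transcription factor C/EBPβ that forms a complex with PRDM16 at the start of brown fat fate in mouse cells, is a gene with a single exon on chromosome 2 from 167688915 to 167690418 on the plus strand. It had 37, 65 and 16 counts in KO F727, F728 and F731, against 64, 58 and 52 in controls F722, F724 and F725. In CPM these were 1.02, 1.53 and 1.10 in KO and 1.86, 1.29 and 1.77 in control, so that KO F728 lay above 1 control and the other KO libraries below all 3. The means were 1.22±0.276 CPM in KO and 1.64±0.303 in control (SD, n = 3 each). The log2 fold change was -0.41 (95% interval -1.11 to 0.29, edgeR adjusted *P*=0.863) and -0.35 (95% interval -1.01 to 0.31) without KO F731. *Tmem189* shares 312 bases of exon with *Cebpb* on the opposite strand and had 340 to 1388 counts per library. The value of *Cebpb* is therefore uncertain, as no source used here gives the strand setting of the counting.

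**Figure D2:**
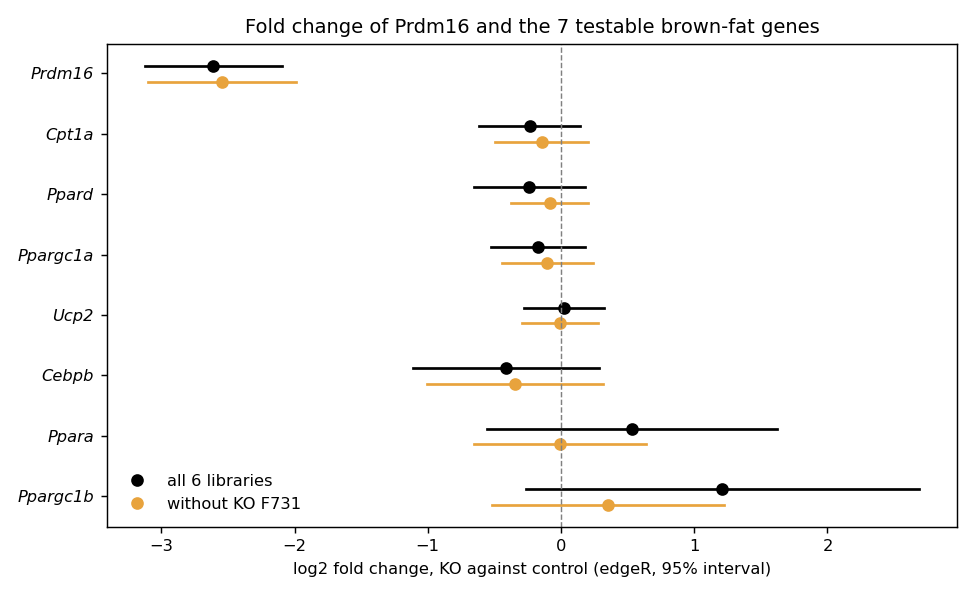
Log2 fold changes of KO against control with 95% intervals from edgeR, over all 6 libraries (black) and without KO F731 (orange), for *Prdm16* and the 7 brown-fat genes with enough counts. Each of the 7 intervals holds 0, with and without KO F731, whereas *Prdm16* lies at -2.61 and -2.54.

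The target genes divided into quiet and expressed ones. *Cidea*, a lipid droplet protein and a classical marker of brown against white fat in mice, lies on chromosome 18 and had 1, 0 and 5 counts in KO F727, F728 and F731, against 2, 2 and 0 in controls F722, F724 and F725. *Elovl3*, an enzyme that lengthens fatty acids and is strongly made in cold-exposed brown fat, lies on chromosome 19 from 46131897 to 46135694 on the plus strand. It had 12 counts in KO F731, 1 in control F724 and 0 in the other 4 libraries. The exact permutation test of CPM gave *P*=0.9 for *Cidea* and *P*=1.0 for *Elovl3*, again with 0.1 as the smallest possible value. A library's floor of 3 counts corresponds to 0.0669 to 0.207 CPM, so levels below this were not detectable at these depths. The floor covers counting error only. *Elovl3* shares 10 bases of exon with *Pitx3* on the opposite strand, which had 8 counts in KO F731 and 0 or 1 in the others, so that these counts are uncertain for the same reason as those of *Cebpb*.

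Counts in KO F731 at genes that are quiet elsewhere were not particular to these 3 genes. Of the 4573 genes with 0 counts in the other 5 libraries, 3483 (76.2%) had counts in KO F731. Over the 4573 the median was 2, the 90th percentile 8 and the maximum 58. By the same measure, each of the other libraries had counts at 4.15% to 7.62% of the genes that were at 0 in the libraries other than itself and KO F731. Among the 8232 genes with 15 counts or fewer over the other 5 libraries, 82.9% had a count in KO F731, with a median of 3 and a 90th percentile of 12. The 5 counts of *Cidea* were more than those of 60.5% of these genes, the 9 of *Pparg* more than 82.2% and the 12 of *Elovl3* more than 89.6%. *Elovl3*, with 1 count elsewhere, also lay above the 90th percentile of 8 of the genes at 0 elsewhere. Without KO F731, the summed counts of the KO group were 5 for *Pparg*, 1 for *Cidea* and 0 for *Elovl3*, and those of the control group were 8, 4 and 1.

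**Figure D3:**
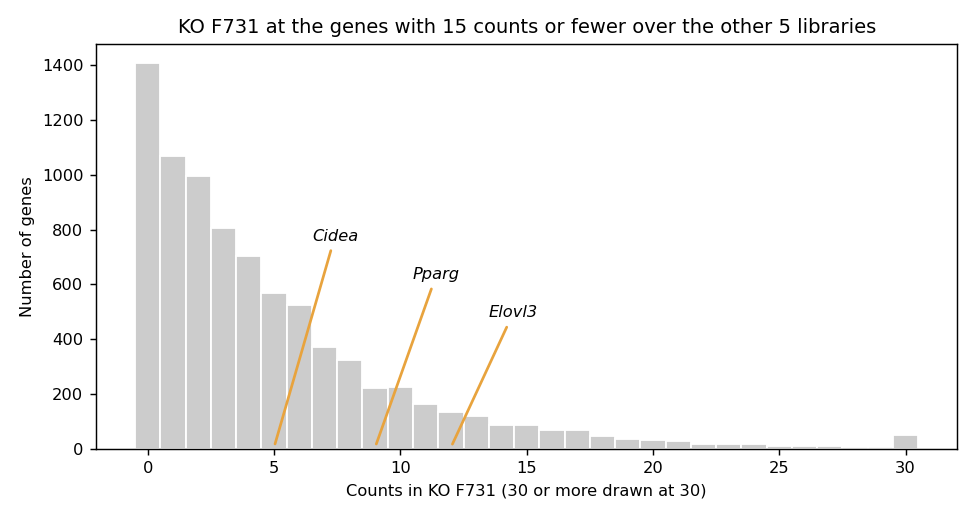
Counts in KO F731 (horizontal axis) of the 8232 genes that had 15 counts or fewer over the other 5 libraries, as the number of genes at each count. Lines mark *Cidea* at 5, *Pparg* at 9 and *Elovl3* at 12 counts, all within the range of the other quiet genes.

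*Ucp2*, which encodes a mitochondrial carrier related to the heat-producing UCP1 but made in many tissues, lies on chromosome 7 from 100493337 to 100502020 on the plus strand. It stood at 21.2, 27.3 and 25.9 CPM in KO F727, F728 and F731 and at 24.4, 23.5 and 25.3 CPM in controls F722, F724 and F725. The KO libraries lay on both sides of the controls. With means of 24.8±3.21 CPM in KO and 24.4±0.934 in control (SD, n = 3 each), it had the narrowest interval of the 7 genes, a log2 fold change of 0.021 with 95% limits of -0.28 and 0.32 (edgeR adjusted *P*=0.965), or a fold of 0.825 to 1.25. Without KO F731 the log2 fold change was -0.0096 (95% interval -0.29 to 0.28). Its exons share 305 bases with *Dnajb13* on the opposite strand, which had only 4 to 18 counts per library.

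*Cpt1a*, the enzyme that admits long-chain fatty acids into mitochondria for oxidation, lies on chromosome 19 from 3322334 to 3385733 on the plus strand. Its level was 25.1, 22.7 and 19.4 CPM in KO F727, F728 and F731, against 27.6, 30.1 and 21.5 CPM in controls F722, F724 and F725. Only KO F731 lay below all controls. The means were 22.4±2.88 CPM in KO and 26.4±4.44 in control (SD, n = 3 each), a log2 fold change of -0.23 (95% interval -0.61 to 0.14, edgeR adjusted *P*=0.863), and -0.15 (95% interval -0.50 to 0.21) without KO F731.

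Levels of different genes were compared per kilobase of exon, as CPM per kilobase over the union of GENCODE exons, in control forebrain. *Ucp2* at 3.49±0.134 and *Cpt1a* at 3.45±0.581 CPM per kilobase (SD, n = 3 each) were highest and overlapped between libraries. Next came *Ppard* at 2.31±0.156, *Ppargc1a* at 1.57±0.175 and *Cebpb* at 1.09±0.201 CPM per kilobase (SD, n = 3 each), whose control libraries did not overlap with each other or with *Cpt1a*. *Ppara* at 0.209±0.0363 and *Ppargc1b* at 0.137±0.0513 (SD, n = 3 each) overlapped, and *Cidea*, *Pparg* and *Elovl3* at 0.0307, 0.0230 and 0.0038 CPM per kilobase rested on 4, 8 and 1 counts over the 3 controls, too few to order. For scale, 62.9% of the genes with a known length were lower than *Ucp2*, 55.0% lower than *Ppargc1a* and 22.7% lower than *Elovl3*, while 20.9% were at 0 in all 3 controls. The exon length matters for these values. Over the exons of curated RefSeq mRNAs, a length added after the GENCODE lengths had been seen, *Ucp2* came to 15.5±0.593, *Cpt1a* to 6.14±1.03 and *Ppard* to 5.40±0.363 CPM per kilobase (SD, n = 3 each). The order of the 7 tested genes by mean was unchanged, but the overlaps were not. Over RefSeq exons *Ucp2* lay apart from *Cpt1a*, and *Ppara* apart from *Ppargc1b*, whereas *Cpt1a* and *Ppard* overlapped.

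*Cpt1a*, *Elovl3*, *Cebpb* and *Ppargc1a* each had a relative with a higher level in the same libraries. *Cpt1c*, the form of CPT1 found in neurons, stood at 6.12±0.481 CPM per kilobase in control forebrain (SD, n = 3), above *Cpt1a*, and the muscle form *Cpt1b* at 1.17±0.309 (SD, n = 3). *Elovl5*, *Elovl2*, *Elovl4* and *Elovl6*, which lengthen polyunsaturated, very long or saturated fatty acids, stood at 21.7, 17.4, 11.1 and 9.90 CPM per kilobase, against 0.0038 for *Elovl3*. *Cebpg* reached 18.3 CPM per kilobase against 1.09 for *Cebpb*, 0.596 for *Cebpd* and 0.590 for *Cebpa*. *Pprc1*, the third PGC-1 family member, was at 8.78, above *Ppargc1a*. Of the RXR genes, whose products pair with the PPAR receptors, *Rxrb* stood at 21.4, *Rxra* at 6.29 and *Rxrg* at 3.58 CPM per kilobase, each above *Ppard* at 2.31, although over RefSeq exons *Rxrg* at 3.48 lay below *Ppard* at 5.40. *Cideb* stood at 0.800 CPM per kilobase, and *Cidec* at 0.0101.

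*Ucp2* was far above *Ucp1*, the uncoupling protein that makes heat in brown fat, at 0.151±0.0863 CPM per kilobase (SD, n = 3), and above *Ucp3*. The *Ucp3* value of 0.0114±0.0025 (SD, n = 3) rests on 1, 2 and 1 counts in controls F722, F724 and F725, below the floor of 3 counts. *Ucp1* had 7, 9 and 9 counts in KO F727, F728 and F731, against 14, 9 and 4 in controls F722, F724 and F725. Against the brain uncoupling proteins the order depended on the length. *Slc25a27* (UCP4) at 13.8 and *Slc25a14* (UCP5) at 9.16 CPM per kilobase were above *Ucp2* at 3.49 over GENCODE exons, but at 7.63 and 11.2 they were below *Ucp2* at 15.5 over RefSeq exons. Beside 0% (edgeR) and 0.115% (DESeq2) of all genes, none of the 18 tested relatives was called. Beside 1.92% of all tested genes, 0 of the relatives reached an unadjusted edgeR *P*-value under 0.05. Their median log2 fold change was 0.058, and -0.0017 without KO F731. The smallest *P*-values among them belonged to *Cebpg*, *Slc25a27* and *Rxrg*, with log2 fold changes of -0.14, -0.32 and 0.26 that were -0.069, -0.073 and 0.15 without KO F731.

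**Figure D4:**
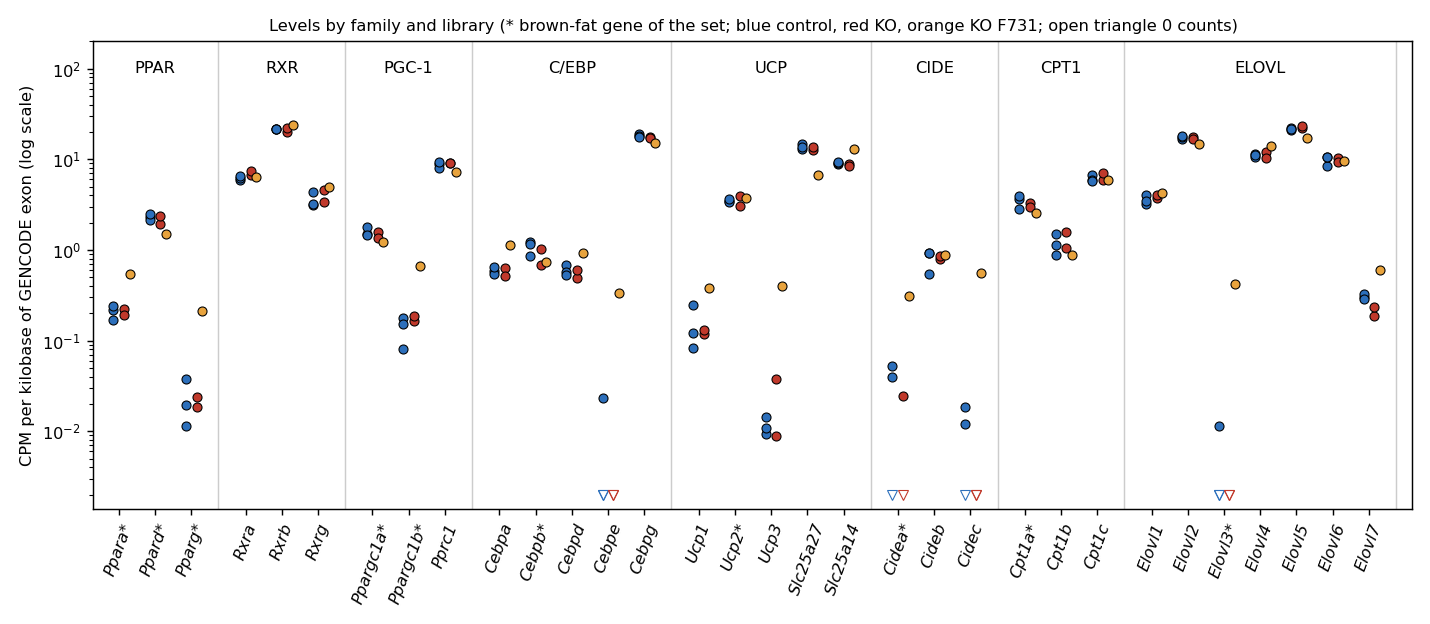
CPM per kilobase of GENCODE exon, on a log scale, in each control library (blue), KO F727 and F728 (red) and KO F731 (orange) for the 10 brown-fat genes, marked by an asterisk, and their relatives by family. Open triangles at the lower edge stand for 0 counts. *Pparg*, *Cidea*, *Elovl3*, *Ucp3*, *Cidec* and *Cebpe* lie near the lower edge in 5 libraries and are highest in KO F731.

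The promoters of these genes differ in CpG content. In RefSeq windows of 300 bases around the transcription start on GRCm38.p6, 7 of the 10 genes had an entry, with 9 starts, and *Elovl3*, *Cidea* and *Ppargc1b* had none. The number of CpG pairs per window was 50 for *Cebpb*, 30 for *Ppara*, 27 for *Ppard*, 22 for *Cpt1a*, 21 for *Ucp2* and 5 for *Ppargc1a*, beside a median of 7 over all starts. *Pparg* has 3 starts in the table, with 44, 13 and 2 CpG pairs from upstream to downstream, the last being that of transcript variant 2, which is known from fat cells. Counts per gene do not tell these starts apart. The 100 bases before the start are printed for the windows richest in CpG and poorest in CpG, with *Ppargc1a*, the main coactivator, as a second poor one, and with CpG in capitals. These 3 were chosen after the windows had been seen.
*Cebpb*, chr2:167688815-167688914, plus strand: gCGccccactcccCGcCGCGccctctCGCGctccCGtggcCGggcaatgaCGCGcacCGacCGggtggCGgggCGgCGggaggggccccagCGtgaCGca
*Ppargc1a*, chr5:51567726-51567825, minus strand: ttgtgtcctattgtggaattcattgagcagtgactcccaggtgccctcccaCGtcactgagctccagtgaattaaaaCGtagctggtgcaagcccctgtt
*Pparg* transcript variant 2, chr6:115421966-115422065, plus strand: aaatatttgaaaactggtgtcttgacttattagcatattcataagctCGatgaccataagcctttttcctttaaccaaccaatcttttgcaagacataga
The *Cebpb* stretch holds 17 CpG pairs, that of *Ppargc1a* 2 and that of *Pparg* 1. Of this trio *Ppargc1a* had the highest level per kilobase.

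Letters of known binding sites were then searched on both strands of the 300-base windows. The sequence AGGTCANAGGTCA, to which a PPAR and RXR pair binds, was in 0 of the 9 starts and in 0.0396% of all starts. Its repeated unit AGGTCA was in 3 of the 9, which were 2 starts of *Pparg* and that of *Cpt1a*, and in 16.3% of all starts. The palindrome TTGCGCAA bound by C/EBP proteins was in 0 of the 9 and 0.183% of all, and CACGTG, the E-box, in 0 and 7.15%. TATAAA was in 2 of the 9, a start of *Pparg* and that of *Cebpb*, and in 13.6% of all. A match is only a match of letters, and windows of this size leave out most enhancers.

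The wider brown fat programme was read through lists of genes from general knowledge. Over all tested genes edgeR called 0%, and DESeq2 called 0.115% over all 6 libraries and 0.206% without KO F731. An unadjusted edgeR *P*-value under 0.05 was reached by 1.92% of all tested genes. Beside these shares, a count of 0 in lists as short as these says little about their genes. Of 21 regulators of brown fat, all 21 were tested, 0 were called by edgeR or DESeq2 with or without KO F731, and 0 reached an unadjusted edgeR *P*-value under 0.05. In this list 8 genes lay above 0 on the log2 scale and 13 below it, and the median was -0.075 (-0.038 without KO F731). *Ctbp1*, the corepressor through which PRDM16 silences white fat genes in mouse cells, had the highest level per kilobase, and stood at 465±25.7 CPM in KO and 465.5±8.42 in control (SD, n = 3 each), with -0.0017 (standard error 0.094) as the log2 fold change and -0.036 without KO F731. For 2 genes of the list all KO libraries were lower than all controls, as for 3.55% of all tested genes, and without KO F731 for 3, beside 6.91%. KO was higher without overlap in 0 genes of the list, beside 3.86%, and in 1, *Rxra*, without KO F731, beside 7.3%. *Ncoa1*, the coactivator SRC-1, stood at 61.7, 59.9 and 43.2 CPM in KO F727, F728 and F731 and at 66.7 to 67.9 in control (log2 fold change -0.29, standard error 0.15, edgeR adjusted *P*=0.863). *Tle3*, a cofactor that competes with PRDM16 for PPARγ in mouse fat cells, stood at 132.7, 146.2 and 108.7 CPM in KO F727, F728 and F731 and at 148.4 to 153.9 in control (log2 fold change -0.22, standard error 0.12). Without KO F731 these log2 fold changes were -0.14 and -0.11, again without overlap.

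Many thermogenic and adipocyte genes had too few counts to be tested. Of 18 genes of thermogenic output 9 were tested and of 14 general adipocyte genes 5, with 0 called by either tool and 0 at an unadjusted edgeR *P*-value under 0.05 in both lists. *Adipoq*, the adiponectin gene, had 2 counts in KO F731 but 0 elsewhere, and *Lep*, the leptin gene, 16 and 0. *Fabp4*, the fatty acid carrier of adipocytes, had 0, 3 and 4 counts in KO F727, F728 and F731, against 0 in every control, and *Plin1*, which coats their lipid droplets, 0, 3 and 10 in KO and 1, 4 and 1 in controls F722, F724 and F725. *Cidec*, a lipid droplet protein of adipocytes, had 15 counts in KO F731 and 0 or 1 in the others. Markers that define adipocytes were thus at or near 0 outside KO F731.

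Those genes of these lists that were measured have roles in other tissues as well. *Fabp3*, a fatty acid carrier of heart and brain, had the highest level per kilobase of the thermogenic list and stood at 12.4±5.36 CPM in KO and 10.7±0.818 in control (SD, n = 3 each). Its log2 fold change was 0.20, and -0.18 without KO F731. *Dio2*, which activates thyroid hormone, had the smallest edgeR *P*-value of the list, with a log2 fold change of 0.59 that became -0.012 without KO F731. *Letmd1*, a mitochondrial protein, had a log2 fold change of -0.11 (-0.011 without KO F731), and *Cox7a1*, a cytochrome oxidase subunit of muscle and brown fat, 0.35 (0.11 without KO F731). In the adipocyte list the lipases *Lpl*, *Lipe* and *Pnpla2* had log2 fold changes of 0.21, -0.059 and 0.083, and *Dgat2*, which makes triglycerides, 0.11. Without KO F731 these were -0.13, -0.075, 0.012 and -0.012, so that the direction of *Lpl* and *Dgat2* rests on that library. Medians were 0.022 for the thermogenic list and 0.083 for the adipocyte list, and -0.011 and -0.012 without KO F731.

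Genes of fatty acid oxidation all had enough counts to be tested, and 15 of the 19 had a log2 fold change above 0 (14 of 19 without KO F731), beside 49.2% of all tested genes. None of the 19 was called by edgeR or DESeq2, and 0 reached an unadjusted edgeR *P*-value under 0.05, beside 1.92% of all tested genes. The median of the list was 0.13 (0.047 without KO F731). *Etfb*, a subunit of the electron carrier that takes up electrons from the acyl-CoA dehydrogenases, was the highest of the list per kilobase and had the smallest *P*-value. It stood at 55.8, 64.1 and 180.8 CPM in KO F727, F728 and F731 and at 65.7, 52.7 and 50.6 in controls F722, F724 and F725, so that the log2 fold change of 0.82 (standard error 0.42) rests on KO F731 and was 0.090 without it. *Decr1*, which handles unsaturated fatty acids, went from 0.40 to 0.12 in the same way. *Ehhadh*, an enzyme of the peroxisomal pathway and a target of PPARα in liver, stood at 1.60, 1.58 and 1.65 CPM in KO F727, F728 and F731 and at 1.02, 1.41 and 0.883 CPM in controls F722, F724 and F725, with KO above every control. Its log2 fold change was 0.53 (standard error 0.29, edgeR adjusted *P*=0.863) and 0.51 without KO F731. *Hadha* and *Etfa* did not overlap between groups either, with log2 fold changes of 0.14 and 0.13 (0.050 and 0.11 without KO F731). KO was thus higher without overlap in 3 of the 19 genes, beside 3.86% of all tested genes, and in 4 without KO F731, beside 7.3%. KO was lower without overlap in 0 of the 19, beside 3.55%, and in 1, *Acaa2*, without KO F731, beside 6.91%.

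Of 14 further genes that respond to PPAR receptors, 9 were tested and 0 called by edgeR or DESeq2. Beside 1.92% of all tested genes, 1 of the 9 reached an unadjusted edgeR *P*-value under 0.05. This was *Acot1*, an acyl-CoA thioesterase, at 34.9, 35.8 and 48.4 CPM in KO F727, F728 and F731, against 22.6, 34.2 and 29.3 in controls F722, F724 and F725 (log2 fold change 0.46, standard error 0.19, edgeR adjusted *P*=0.863). Without KO F731 its log2 fold change was 0.30 and it no longer passed that threshold. It was the 1 gene of the list with KO higher without overlap, with and without KO F731, beside 3.86% and 7.3% of all tested genes. *Acot1* has near-identical relatives with which its reads may be shared. *Pdk4*, which turns cells from glucose to fat, stood at 0.440, 0.636 and 0.964 CPM in KO F727, F728 and F731 and at 0.755, 0.915 and 1.16 in control. Its log2 fold change was -0.52 (standard error 0.40), and -0.78 (edgeR adjusted *P*=0.9999) without KO F731, where the groups no longer overlapped. There *Pdk4* was the 1 gene of the list under an unadjusted edgeR *P*-value of 0.05, beside 2.63% of all tested genes. *Pex11a*, of peroxisome division, had a log2 fold change of -0.28 (-0.021 without KO F731), and *Plin2*, the lipid droplet protein of most tissues, -0.012 (-0.12 without KO F731). Without KO F731 *Plin2* did not overlap between groups either, so that KO was lower without overlap in 2 of the 9, beside 6.91% of all tested genes.

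The 16 genes of mitochondrial biogenesis, which PGC-1 coactivators drive, had a median log2 fold change of -0.060 (0.0040 without KO F731), with 7 above 0 and 9 below. None was called by edgeR or DESeq2 and, beside 1.92% of all tested genes, 0 of the 16 reached an unadjusted edgeR *P*-value under 0.05. *Cox4i1*, a subunit of cytochrome oxidase and the highest of them per kilobase, stood at 300.8, 324.0 and 622.7 CPM in KO F727, F728 and F731 and at 291.4 to 320.3 in control. KO F731 stood far above the rest, and the log2 fold change of 0.46 (standard error 0.27) became 0.045 without it. *Cycs*, cytochrome c, and *Peo1*, the mitochondrial helicase Twinkle, had log2 fold changes of 0.14 and 0.15, and 0.020 and 0.0052 without KO F731.

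Skeletal muscle genes were listed because PRDM16 favours brown fat over muscle in mouse precursors. Of the 14 genes 6 were tested, 0 were called by edgeR or DESeq2, and 3 reached an unadjusted edgeR *P*-value under 0.05, all higher in KO, beside 1.26% of all tested genes. Without KO F731 1 of them, *Pax7*, passed that threshold. *Myh3*, 1 of the 3, passed the count filter over all 6 libraries only through its KO libraries, since no control reached it. Its part in the counts of this list thus follows from its level in KO and is no evidence of a difference. *Ttn*, titin, had 358 counts in KO F731, the shallowest library, and 30 to 53 in the others, and its log2 fold change of 2.93 (standard error 1.23) became -0.092 without KO F731. *Myh3*, embryonic myosin, had 15, 19 and 50 counts in KO F727, F728 and F731, against 7, 12 and 8 in controls F722, F724 and F725, so that its log2 fold change was 2.38 (standard error 0.91, edgeR adjusted *P*=0.863), and 0.79 without KO F731. *Pax7*, a factor of muscle stem cells that is also made in parts of the embryonic brain, had 24, 29 and 19 counts in KO F727, F728 and F731, against 11, 7 and 15 in controls F722, F724 and F725, so that its log2 fold change was 1.40 (standard error 0.54, edgeR adjusted *P*=0.863), and 1.10 without KO F731. *Myh3* and *Pax7* were higher in every KO library than in every control, with and without KO F731, which makes 2 of 6 genes beside 3.86% and 7.3% of all tested genes. Without KO F731, 1 of the 6, *Des*, was lower without overlap, beside 6.91%. The muscle regulators *Myod1*, *Myog* and *Myf5* had 8, 10 and 4 counts in KO F731 and 0 to 3 in the others, and *Mylpf*, the most abundant muscle gene per kilobase, had a log2 fold change of 0.43 (0.12 without KO F731). The median of the list was 1.25 over all libraries and 0.046 without KO F731.

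**Figure D5:**
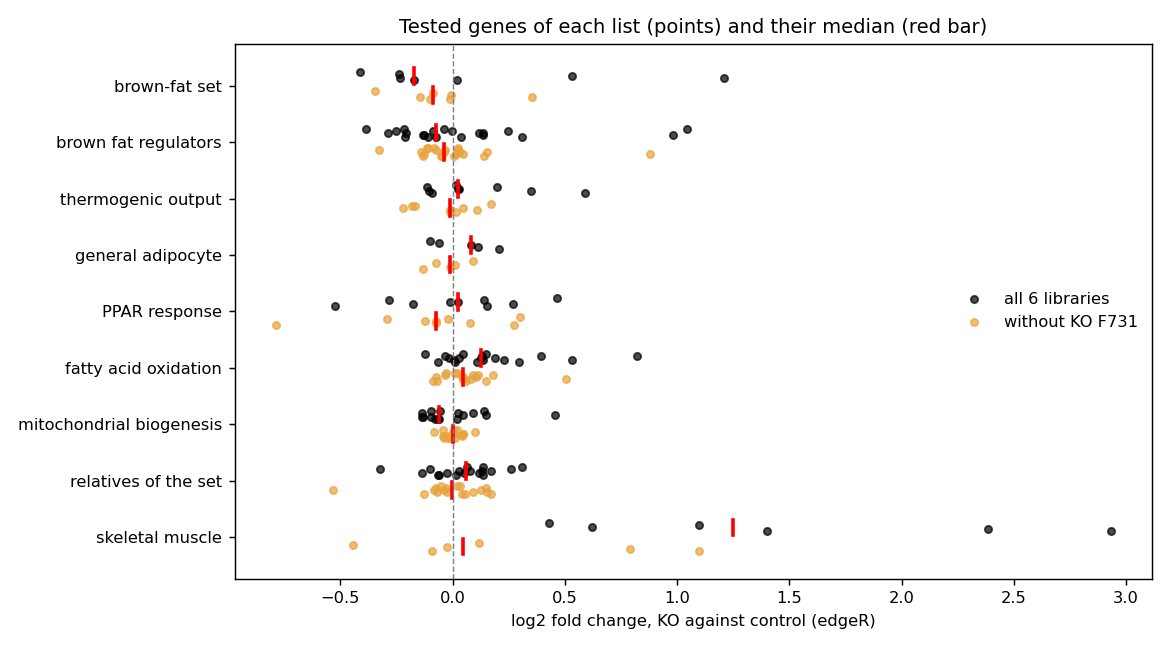
Log2 fold changes of KO against control (edgeR) of the tested genes in the brown-fat set and 8 further lists, over all 6 libraries (black) and without KO F731 (orange), with red bars at the median. The medians lie between -0.17 and 0.13 apart from skeletal muscle, which moves from 1.25 to 0.046 when KO F731 is left out.

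Over the 8 lists together, 99 of 131 genes were tested, and 0 were called by edgeR or DESeq2, beside 0% and 0.115% of all genes. Of the 99, 4 reached an unadjusted edgeR *P*-value under 0.05, beside 1.92% of all tested genes. Without KO F731 there were 2, beside 2.63%. KO and control libraries did not overlap in 6 of the 99 with KO higher and in 2 with KO lower, beside 3.86% and 3.55% of all tested genes. *Myh3*, which passed the count filter through KO only, is among the 4 and the 6. Without KO F731 there were 8 with KO higher and 8 with KO lower, beside 7.3% and 6.91%. A missed threshold does not show that a gene is unchanged, and the intervals state what these data leave possible. For *Ucp2*, *Ppargc1a*, *Cpt1a* and *Ppard* they keep the KO level in bulk forebrain RNA between 0.635 and 1.25 times the control. For *Ppargc1b* the interval reaches a fold of 6.43. The intervals do not bound a change confined to radial glia, which bulk RNA would dilute and which was not tested.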

How the data were processed

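The deposited table of raw read counts per gene was analysed for 3 KO and 3 control forebrain libraries (E13.5). The authors trimmed reads with Trimmomatic, mapped them to mm10 with HISAT2 and took genes from the iGenomes UCSC set. Which program counted, with what strand setting and what treatment of multi-mapped reads, is not given in the sources used here. Of the 24 columns of samples 6 matched the RNA-seq groups by name, and 18 were left out. The ChIP-seq and ATAC-seq samples were not analysed here.

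Genes kept by filterByExpr (minimum count 10) were scaled by TMM and tested with the quasi-likelihood test of edgeR 4.0.16 in R 4.3.3, with *P*-values adjusted by the Benjamini-Hochberg method over all 15027 tested genes and a threshold of 0.05. Standard errors derive from the F statistic, and intervals are at 95%. Genes below the filter got a two-sided exact permutation test of CPM. The study used DESeq2, which served as an alternative (1.42.0), as did limma-voom with and without sample quality weights (limma 3.58.1), RLE and upper-quartile scaling, no filter, a filter at 1 CPM in 3 libraries and leaving out each library. Exon lengths and positions come from GENCODE vM21, matched by symbol for 95.7% of the genes. Promoters come from RefSeq on GRCm38.p6. The tests were tried on simulated counts.

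The members and lists were chosen with earlier results of these data known, and no list was tested as a set. Named genes were *Prdm16*, all 10 members, their relatives where levels are compared and, from each list, the 3 genes with the smallest *P*-value and the gene with the highest CPM per kilobase. *Hadha*, *Etfa*, *Acaa2*, *Des*, *Rxra* as a regulator and the genes named for their low counts were added after their values had been seen. No pair of libraries held identical counts. Each column name carries 1 animal number, so each library was taken as 1 embryo, which no source used here states. The edgeR *P*-values set the difference between groups against the spread between libraries, estimated with the help of all tested genes. The exact permutation test sets that difference against other divisions of the 6 libraries.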

Additional observations from a re-analysis of the deposited data

How the results depend on the processing

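In 14 alternative fits across all genes, 0 of the brown-fat genes and 0 genes of the lists that a fit tested were called. *Pparg*, *Cidea* and *Elovl3* had too few counts for the main fit and got no adjusted *P*-value from DESeq2. Over all genes, edgeR called 0, DESeq2 18, DESeq2 without KO F731 33, limma-voom with sample quality weights 12 and edgeR with no filter 1. Of 96 log2 fold changes of the 7 tested brown-fat genes under these alternatives, 89 kept their direction. *Ppara* reversed to -0.0145 in DESeq2 without KO F731 and to -0.0071 in edgeR without KO F731. *Ucp2* reversed to -0.012 in DESeq2 without KO F731 and -0.0196 with no filter, and in edgeR to -0.0096 without KO F731, -0.0089 without control F724 and -0.061 without KO F728, within a range of -0.061 to 0.12 over the fits that leave out 1 library. The cause of these reversals was not tested. No paired analysis was possible because no source used here states which KO and control embryos shared a litter. Differences between litters were therefore not tested. The precision is limited by 3 libraries a group, by the low depth of KO F731 and, for *Pparg*, *Cidea* and *Elovl3*, by counts at the floor.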
